A study of Mus musculus with 13 samples.

Results

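Transcripts of cholesterol synthesis, of its control by SREBP2 and of sterol transport were followed in brown fat of mice, a tissue that burns lipid and sugar to keep the body warm. The members were 31 genes listed by symbol: 19 enzymes, 4 genes of SREBP2 control and 8 genes of sterol uptake, transport, storage and efflux. In the table of 55357 gene identifiers 30 were found by symbol, and Idi1 was found by its Ensembl identifier because its line carried no symbol. A filter on low counts left 11073 genes for testing, among them 29 members. Idi1 (1 to 7 counts per library) and Tm7sf2 (3 to 9 counts per library) did not pass it and were not tested.

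The study deposited 13 libraries. Control mice carried the floxed Stim1/2 alleles (Stim1/2 fl/fl), and knockout mice (KO, Stim1/2 Adp-Cre) carried Cre under the adiponectin promoter, which is active in adipocytes, so that other cells of the tissue keep Stim1 and Stim2, the calcium sensors of the endoplasmic reticulum. Tissue was taken at room temperature (RT) or after 6 h at 4 °C (cold), giving 2 control RT, 3 KO RT, 4 control cold and 4 KO cold libraries. The sources used here give neither strain nor age. Nothing in the labels ties each sample to its own animal, so p-values measure the spread between these samples, which may be technical.

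Libraries held 1570684 to 2016178 counts of 3′ tags, and mitochondrial genes took 9.43% to 13.4% of them. For Stim1 and Stim2 the highest KO library lay below the lowest control library at either temperature, which 6.53% of all genes did in cold and 7.96% at RT. Stim1 was 1.37-fold lower in KO cold (adjusted p = 0.0570 in edgeR) and 1.86-fold lower in KO RT (adjusted p = 0.349), and neither passed. Stim2 was 1.84-fold lower in KO cold and passed (adjusted p = 0.0382), and was 1.51-fold lower in KO RT without passing (adjusted p = 1). All 8 brown adipocyte markers on the list used were tested, and their summed level was 15893 to 27079 CPM. CPM is the count of a gene scaled to its library's adjusted total. That is the total over the genes kept by the filter, multiplied by the library's trimmed mean of M values (TMM) factor. These factors were 1.04 (KO RT 3) to 1.09 (KO RT 1) at RT and 0.889 (control cold 2) to 1.004 (KO cold 2) in cold. Levels and overlaps of libraries given here depend on this scaling. Skeletal muscle markers summed to 2255 CPM in control RT 1, 1417 CPM in KO RT 1 and 941 CPM in KO RT 2, and to between 47.8 and 320.1 CPM in the other 10 libraries. Bulk tissue was measured, so fewer cells of a type and less RNA per cell cannot be told apart.

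Cells make cholesterol from acetyl-CoA. The mevalonate pathway yields farnesyl diphosphate, from which squalene, then lanosterol and finally cholesterol are formed in the endoplasmic reticulum. When sterols in that membrane are low, SCAP escorts the transcription factor SREBP2 to the Golgi, where it is cut and released to switch on the genes of synthesis and uptake, and the INSIG proteins hold SCAP back when sterols are plentiful. NPC1 and NPC2 move cholesterol out of lysosomes, SCARB1 exchanges it with high-density lipoprotein, SOAT1 stores it as esters, and ABCA1 and ABCG1 export it. Brown fat takes up much lipoprotein lipid when it is active.

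Promoters of 6 members are shown because SREBP2 acts through promoter elements, together with factors that bind CCAAT boxes. Of these, Cyp51, Hsd17b7, Acat2 and Ebp passed for cold over RT in control, and Hmgcs1 and Srebf2 passed in no comparison. The table of RefSeq promoters (build GRCm38.p6) held 30 windows for 24 of the 31 members. It had no entry for Fdps, Fdft1, Sqle, Scarb1, Npc1, Stard4 and Abcg1. Each line gives the 250 bases before the transcription start, 5′ to 3′ on the strand of the gene, and capitals mark the SRE-type motif TCACNCCAC and the CCAAT box, each searched on both strands, so that a CCAAT box on the other strand reads ATTGG. No marked motif overlaps another. The windows are Hmgcs1 at chr13:119690101-119690350 (plus strand), Srebf2 at chr15:82147019-82147268 (plus strand), Cyp51 at chr5:4104698-4104947 (minus strand), Hsd17b7 at chr1:169969206-169969455 (minus strand), Acat2 at chr17:12960726-12960975 (minus strand) and Ebp at chrX:8193513-8193762 (minus strand).
Hmgcs1: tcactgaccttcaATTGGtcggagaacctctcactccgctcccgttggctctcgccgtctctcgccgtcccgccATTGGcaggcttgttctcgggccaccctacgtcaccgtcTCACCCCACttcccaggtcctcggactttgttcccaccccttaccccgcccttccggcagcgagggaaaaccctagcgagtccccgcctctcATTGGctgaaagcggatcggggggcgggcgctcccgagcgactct
Srebf2: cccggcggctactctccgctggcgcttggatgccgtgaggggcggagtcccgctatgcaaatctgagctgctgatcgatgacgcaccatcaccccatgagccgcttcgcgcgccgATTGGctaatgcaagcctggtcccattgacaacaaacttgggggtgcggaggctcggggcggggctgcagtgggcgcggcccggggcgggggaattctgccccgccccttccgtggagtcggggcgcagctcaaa
Cyp51: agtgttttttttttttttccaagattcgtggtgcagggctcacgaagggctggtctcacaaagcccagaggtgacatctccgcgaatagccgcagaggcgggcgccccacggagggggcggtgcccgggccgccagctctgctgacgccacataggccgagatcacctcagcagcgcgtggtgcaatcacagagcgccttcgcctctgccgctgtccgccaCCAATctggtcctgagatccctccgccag
Hsd17b7: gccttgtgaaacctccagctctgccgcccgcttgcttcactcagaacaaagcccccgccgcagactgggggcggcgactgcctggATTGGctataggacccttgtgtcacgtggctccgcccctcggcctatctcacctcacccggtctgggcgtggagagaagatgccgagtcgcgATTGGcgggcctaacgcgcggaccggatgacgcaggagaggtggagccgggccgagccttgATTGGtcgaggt
Acat2: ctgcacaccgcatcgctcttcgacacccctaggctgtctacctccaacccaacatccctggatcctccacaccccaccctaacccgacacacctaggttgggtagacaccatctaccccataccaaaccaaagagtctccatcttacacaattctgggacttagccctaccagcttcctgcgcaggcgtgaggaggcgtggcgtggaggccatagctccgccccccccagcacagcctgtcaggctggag
Ebp: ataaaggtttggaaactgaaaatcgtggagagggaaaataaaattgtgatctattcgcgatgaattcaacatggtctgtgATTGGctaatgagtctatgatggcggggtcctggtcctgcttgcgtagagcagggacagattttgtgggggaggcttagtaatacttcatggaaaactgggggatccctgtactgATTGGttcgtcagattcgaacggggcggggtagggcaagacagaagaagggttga

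The SRE-type motif was found in 1 of the 30 windows (3.33%), that of Hmgcs1, 137 bases before the start, and in 1.05% of all 32851 promoters in the table. A CCAAT box was found in 21 of the 30 windows (70%), each of another member, and in 33.8% of all promoters. The 3 members without one were Abca1, Acat2 and Scap. Hsd17b7 had 3 CCAAT boxes, at 165, 73 and 12 bases before the start, Cyp51 had 1 at 29 bases and Ebp had 2, at 170 and 55 bases. Cyp51 and Hsd17b7 were higher in cold and Ebp was lower in cold in control (values follow). The box was present in 21 of the 24 members with a window, and a link with the direction of change was not tested. The E-box CACGTG was found in 6 of the 30 windows (20%), those of Abca1, Dhcr7, Hsd17b7, Insig1, Sc5d and Scap, and in 6.02% of all promoters. The Sp1-type motif GGGCGG, which is not marked above, was found in 24 of the 30 windows (80%) and in 32.7% of all promoters. It was present in 22 of the 24 members with a window, Abca1, Acat2 and Scap among them. The cAMP response element TGACGTCA was found in 0 of the 30 windows and in 1.55% of all promoters. These are matches of letters in 1 window per start and describe no binding. Only exact matches to the letters given were counted, so a window without a marked motif may still hold a variant form of it.

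Across the pathway, cold moved enzymes in opposite directions within both genotypes. In control mice 5 members rose and 5 fell of 29 tested, or 34.5%, beside 25.2% of all genes (12.7% higher and 12.6% lower). In KO mice 5 rose and 5 fell as well, beside 18.9% of all genes (9.43% higher and 9.45% lower). Libraries of cold and RT did not overlap for 6 higher and 8 lower members in control, beside 19.8% and 20.6% of all genes, and for 8 higher and 8 lower in KO, beside 15.8% and 16.4%. A total of 7 members passed in both genotypes, all in the same direction: Fdps, Sqle, Cyp51 and Hsd17b7 rose, and Acat2, Fdft1 and Scarb1 fell. They are 70% of the called members of each genotype, where the genes called in both the same way made up 51.3% of all those called in control and 68.6% in KO. The median log2 fold change of the members was -0.12 in control and -0.05 in KO, beside -0.02 and -0.01 over all genes. Scaled by plain library totals in place of the trimmed mean of M values, the control response held 2 rises and 9 falls and the KO response 3 rises and 7 falls. That scaling shifted the median of all genes by -0.23 and -0.12 on the log2 scale, and it ended the calls of Sqle in both genotypes, Cyp51 and Insig2 in control and Hsd17b7 in KO.

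**Figure D1:**
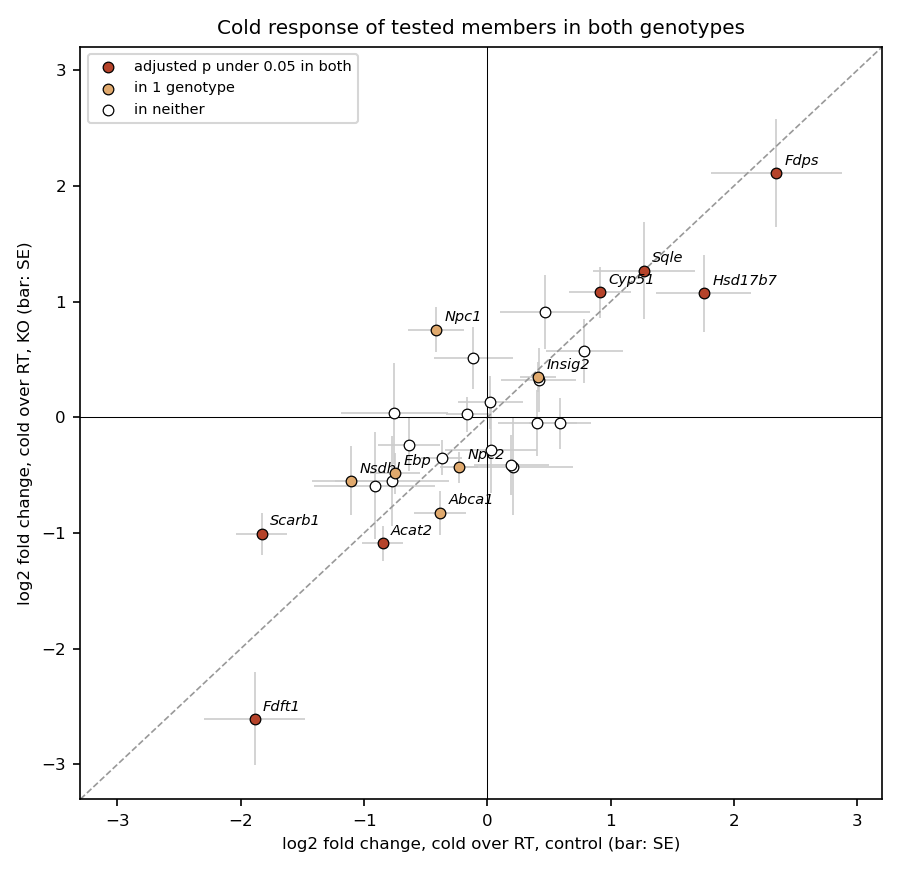
Log2 fold change of cold over RT in control (x axis) and in KO (y axis) for the 29 tested members, with bars of 1 standard error and a dashed line of equal response. Fdps lies at the upper right with 2.34 in control and 2.11 in KO, Fdft1 at the lower left with -1.89 and -2.61, and Npc1 is the member that passed in KO with a positive value while its control value was negative.

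Among the early enzymes, Fdps, which makes farnesyl diphosphate, gave the largest cold rise among the 29 tested members in both genotypes. For this enzyme control RT libraries read 8.28 and 13.3 CPM, KO RT libraries 11.7, 9.75 and 7.87 CPM, control cold libraries 32.8, 25.9, 62.6 and 96.001 CPM and KO cold libraries 29.99, 47.0, 67.5 and 24.8 CPM, in the order of their numbers. Each cold library was higher than each RT library, and within the cold groups the levels ran over a wide range. The rise was 5.07-fold in control (log2 fold change 2.34 ± 0.53, adjusted p = 0.00449) and 4.32-fold in KO (log2 fold change 2.11 ± 0.46, adjusted p = 0.00442). Here and below, ± after a log2 fold change is its standard error, taken as the unsigned change over the square root of the test's F. Such an error can be unstable for changes near 0. Adjusted p comes from edgeR's quasi-likelihood test with Benjamini-Hochberg adjustment over the 11073 genes, with values under 0.05 called changed. Fdps shares 1124 exon bases with Gm43738, a gene on the same strand in the GENCODE M21 annotation. Hmgcs1 shares 557 with Gm48342 and Cyp51 shares 166 with Akap9, both on the opposite strand. How tags there were assigned is not given, so levels of these members are uncertain by what the partners contribute. Akap9 was at 152 to 184 CPM over the 13 libraries. For cold over RT it passed neither in control (log2 fold change -0.04 ± 0.12, adjusted p = 0.827) nor in KO (log2 fold change -0.06 ± 0.11, adjusted p = 0.747).

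Acat2, the cytosolic thiolase that condenses acetyl-CoA at the entry of the pathway, went the other way. For Acat2, control RT libraries read 214 and 202 CPM, KO RT libraries 205, 203 and 248 CPM, control cold libraries 113, 133, 134 and 81.2 CPM and KO cold libraries 95.5, 114, 98.4 and 102 CPM. No cold library reached the lowest RT library. It fell in control (log2 fold change -0.85 ± 0.17, adjusted p = 0.00180) and in KO (log2 fold change -1.09 ± 0.15, adjusted p = 0.000147).

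Hmgcs1, which makes HMG-CoA from acetyl-CoA units, had the highest tag level of the enzymes. For Hmgcs1, control RT libraries read 554 and 746 CPM, KO RT libraries 449, 695 and 469 CPM, control cold libraries 351, 415, 553 and 352 CPM and KO cold libraries 353, 612, 544 and 316 CPM. The control groups came as near as 554.1 and 552.6 CPM without overlap, and the KO groups overlapped. The difference did not pass in control (log2 fold change -0.64 ± 0.25, adjusted p = 0.0758) or in KO (log2 fold change -0.24 ± 0.23, adjusted p = 0.510). Without control cold 3 the fall in control passed (adjusted p = 0.0296), and with plain library totals it passed too (adjusted p = 0.0209). The kinases and the decarboxylase that follow, Mvk, Pmvk and Mvd, passed in no comparison. Mvk held 3 to 32 counts per library, Mvd 4 to 13 and Pmvk 66 to 203, so that only large changes of Mvk and Mvd were detectable at this depth.

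At the branch to sterols, the enzyme that commits farnesyl diphosphate and the one after it moved in opposite directions. For Fdft1, squalene synthase, control RT libraries read 42.3 and 18.1 CPM and KO RT libraries 28.4, 33.3 and 29.9 CPM. In cold control libraries read 8.64, 11.1, 8.67 and 4.24 CPM and KO libraries 5.51, 2.61, 1.69 and 10.2 CPM, all below every RT library. It fell in control (log2 fold change -1.89 ± 0.41, adjusted p = 0.00339) and in KO, where the level was 6.09-fold lower in cold (log2 fold change -2.61 ± 0.40, adjusted p = 0.000329). The KO cold libraries held 3 to 18 counts of Fdft1, and without KO cold 4 the log2 fold change in KO was -3.22 (adjusted p = 0.000119). Fdft1 shares 774 exon bases with Ctsb on the opposite strand, and Ctsb, a lysosomal protease, did not pass for cold over RT in control (log2 fold change -0.25 ± 0.18, adjusted p = 0.337) or in KO (log2 fold change -0.48 ± 0.16, adjusted p = 0.0505).

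Sqle encodes squalene epoxidase, a rate-limiting step of the later pathway. For Sqle, control RT libraries read 16.1 and 8.44 CPM, KO RT libraries 7.60, 8.61 and 4.20 CPM, control cold libraries 36.9, 24.1, 42.7 and 16.9 CPM and KO cold libraries 15.3, 10.96, 12.4 and 27.1 CPM. Within each genotype all cold libraries were above all RT libraries, while control RT 1 was above 3 of the 4 KO cold libraries. It rose in control (log2 fold change 1.27 ± 0.41, adjusted p = 0.0326) and in KO (log2 fold change 1.27 ± 0.42, adjusted p = 0.0443). The control call was lost without control RT 1 or 2 or control cold 1 or 3 (adjusted p 0.0566 to 0.186). The KO call was lost without any KO RT library, control cold 1 or KO cold 1 or 4 (adjusted p 0.05002 to 0.155). Lss, which closes the ring to lanosterol, did not pass in control (log2 fold change 0.47 ± 0.36, adjusted p = 0.368) or in KO (log2 fold change 0.91 ± 0.32, adjusted p = 0.0584).

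Of the enzymes from lanosterol to cholesterol, 2 rose in both genotypes. For Cyp51, the lanosterol demethylase, control RT libraries read 37.7 and 40.4 CPM, KO RT libraries 26.3, 32.1 and 32.5 CPM, control cold libraries 79.5, 53.8, 98.5 and 61.4 CPM and KO cold libraries 64.9, 48.5, 56.8 and 86.3 CPM. Every cold library lay above every RT library. It rose in control (log2 fold change 0.91 ± 0.25, adjusted p = 0.0140) and in KO (log2 fold change 1.08 ± 0.22, adjusted p = 0.00307). For Hsd17b7, a ketosteroid reductase of the demethylation complex, control RT libraries read 11.5 and 22.3 CPM, KO RT libraries 11.7, 18.4 and 24.7 CPM, control cold libraries 74.3, 54.4, 65.7 and 27.5 CPM and KO cold libraries 47.7, 27.1, 36.0 and 42.9 CPM. Within each genotype the cold libraries were all above the RT libraries. It rose 3.38-fold in control (log2 fold change 1.75 ± 0.38, adjusted p = 0.00362) and 2.10-fold in KO (log2 fold change 1.07 ± 0.33, adjusted p = 0.0325). The KO call was lost without KO RT 1 or 2 or KO cold 1, 3 or 4 (adjusted p 0.0552 to 0.159).

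In the same part of the pathway 2 enzymes fell in control. For Ebp, the sterol isomerase, control libraries read 74.0 and 56.6 CPM at RT and 28.2, 47.6, 44.6 and 36.0 CPM in cold, with no overlap (log2 fold change -0.75 ± 0.20, adjusted p = 0.0130). Its KO libraries read 72.4, 69.4 and 57.2 CPM at RT and 45.3, 45.9, 41.1 and 57.6 CPM in cold, where KO cold 4 was above KO RT 3, and Ebp did not pass there (log2 fold change -0.48 ± 0.18, adjusted p = 0.0680). For Nsdhl, which works in the same complex as Hsd17b7, control libraries read 49.7 and 24.7 CPM at RT and 21.9, 18.5, 21.1 and 7.76 CPM in cold, with no overlap and control RT 1 far above the rest (log2 fold change -1.10 ± 0.32, adjusted p = 0.0200). Its KO libraries read 27.9, 26.4 and 27.3 CPM at RT and 25.1, 14.1, 14.1 and 21.4 CPM in cold, which did not overlap and did not pass (log2 fold change -0.55 ± 0.30, adjusted p = 0.216). The difference between the cold responses of the genotypes did not pass for Ebp (adjusted p = 0.860) or Nsdhl (adjusted p = 0.810). Msmo1, the sterol reductases Lbr and Dhcr7 and the desaturase Sc5d passed in no comparison. Lbr was at 24.1 to 44.5 CPM over the 13 libraries and Sc5d at 54.6 to 118 CPM, while Dhcr7 held 2 to 15 counts per library. Msmo1, the methyl oxidase upstream of Nsdhl, had a mean of 29.0 ± 10.3 CPM in control RT (SD, n = 2) against 50.5 ± 20.2 CPM in control cold (SD, n = 4; log2 fold change 0.79 ± 0.31, adjusted p = 0.0765).

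**Figure D2:**
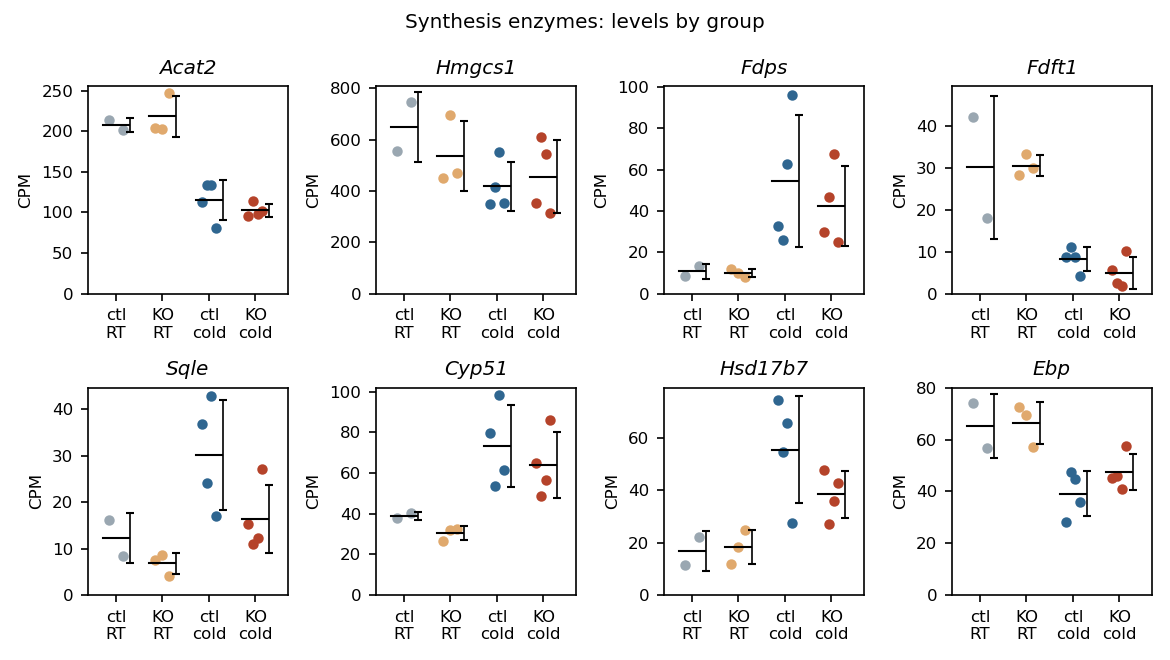
CPM (y axis, from 0) of 8 synthesis enzymes in each library by group (x axis, ctl for control); points are libraries, lines are group means and whiskers 1 SD (n = 2, 3, 4 and 4 from left to right). Fdps, Sqle, Cyp51 and Hsd17b7 are higher in cold, Acat2 and Fdft1 are lower in cold in both genotypes, and Hmgcs1 overlaps between KO RT and KO cold.

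Control RT held 2 libraries, so leaving out 1 left a single library that was assumed to vary like the other groups. Without control RT 1, the library with the highest muscle marker sum, 2 of the 10 calls were kept, Acat2 and Scarb1, and 9.25% of all genes were called. The fold changes of Fdft1 and Nsdhl shrank most without it, to -1.13 and -0.50 on the log2 scale (adjusted p = 0.176 and 0.475). Fdps was then at 2.01 (adjusted p = 0.0752), Sqle at 1.84 (adjusted p = 0.0566), Hsd17b7 at 1.32 (adjusted p = 0.0857) and Cyp51 at 0.86 (adjusted p = 0.123). Ebp was at -0.54 (adjusted p = 0.213) and Insig2 at 0.37 (adjusted p = 0.256). Without control RT 2, 8 calls were made. In KO mice 6 of the 10 calls were kept without KO RT 1 and 6 without KO RT 2. The part of muscle transcripts in these differences was not tested.

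The genes of SREBP2 control gave 1 call, in control mice. For Insig2, a retention protein for SCAP, control libraries read 86.0 and 90.4 CPM at RT and 108, 110.0, 125 and 125 CPM in cold, with no overlap (log2 fold change 0.41 ± 0.14, adjusted p = 0.0484). The Insig2 call was lost without control RT 1 or 2, KO RT 1 or 2, control cold 1, 3 or 4 or KO cold 1, 2 or 3 (adjusted p 0.0532 to 0.256) and with DESeq2 (adjusted p = 0.0615). The call was also lost with no filter on low counts, a minimum count of 30, the replicate number as a block, only the groups compared and plain library totals. It was kept in 4 of 20 alternatives. The KO libraries of Insig2 read 71.9, 73.4 and 91.9 CPM at RT and 97.3, 103.3, 91.1 and 111 CPM in cold, with KO RT 3 inside the cold range (log2 fold change 0.35 ± 0.13, adjusted p = 0.0676).

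For Srebf2, which encodes SREBP2, control RT libraries read 30.3 and 23.5 CPM, KO RT libraries 30.9, 36.1 and 27.3 CPM, control cold libraries 42.0, 36.5, 50.8 and 33.9 CPM and KO cold libraries 31.8, 20.3, 27.6 and 41.8 CPM. The control groups did not overlap and the KO groups did. It passed in neither control (log2 fold change 0.59 ± 0.25, adjusted p = 0.0965) nor KO (log2 fold change -0.05 ± 0.22, adjusted p = 0.898), and the difference of the cold responses did not pass either (log2 fold change -0.64 ± 0.33, adjusted p = 0.645, 95% interval -1.35 to 0.07). For Insig1, itself a sterol-responsive target of SREBP2, control RT libraries read 66.7 and 50.02 CPM, KO RT libraries 82.6, 67.7 and 98.2 CPM, control cold libraries 107, 50.7, 63.8 and 45.2 CPM and KO cold libraries 69.2, 68.3, 38.8 and 72.8 CPM. Each KO RT library of Insig1 was above each control RT library, the other pairs compared overlapped, and no comparison passed. Scap, the escort protein, was at 35.8 to 50.1 CPM over the 13 libraries and passed in no comparison. SREBP2 is regulated by cleavage, which transcript counts do not measure.

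Among transport genes, cold lowered Scarb1 in both genotypes, and in cold Npc1 and Scarb1 were higher in KO than in control. For Scarb1, the high-density lipoprotein receptor, control RT libraries read 83.2 and 79.5 CPM, KO RT libraries 80.0, 86.1 and 72.4 CPM, control cold libraries 20.7, 17.3, 34.7 and 18.4 CPM and KO cold libraries 33.0, 39.6, 39.9 and 45.1 CPM. Every cold library was below every RT library, and in cold the genotypes overlapped through control cold 3. The level was 3.56-fold lower in cold in control (log2 fold change -1.83 ± 0.21, adjusted p = 2.68e-05) and 2.01-fold lower in KO (log2 fold change -1.01 ± 0.18, adjusted p = 0.00106).

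For Npc1, the membrane protein that exports cholesterol from lysosomes, control RT libraries read 41.8 and 49.4 CPM, KO RT libraries 45.6, 37.3 and 57.7 CPM, control cold libraries 39.2, 28.4, 29.7 and 38.8 CPM and KO cold libraries 63.6, 83.5, 66.9 and 103.3 CPM. All 4 KO cold libraries stood above the other 9. The control cold libraries were below both control RT libraries without passing (log2 fold change -0.42 ± 0.23, adjusted p = 0.196), and the KO level rose in cold (log2 fold change 0.76 ± 0.19, adjusted p = 0.0113). The KO rise was lost without KO RT 1 (adjusted p = 0.0513) or KO RT 2 (adjusted p = 0.0621). The difference of the cold responses was 1.18 on the log2 scale (95% interval 0.54 to 1.81), with an unadjusted p of 0.00112 in edgeR and an adjusted p of 0.269, and did not pass. For Scarb1 it was 0.82 (95% interval 0.23 to 1.42, unadjusted p = 0.00943 and adjusted p = 0.438 in edgeR). Over all genes 0.0181% passed in that comparison, and 0 of the 29 members did in edgeR or in DESeq2. At an unadjusted p under 0.05 edgeR found 2 members, Npc1 and Scarb1, beside 8.25% of all genes.

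**Figure D3:**
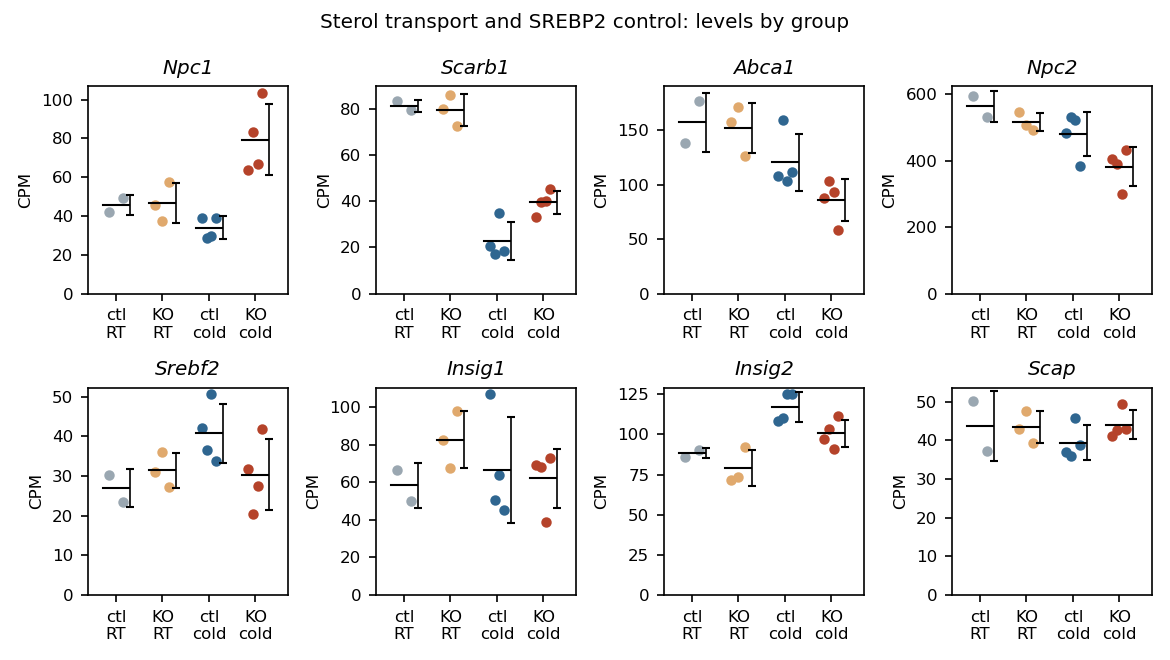
CPM (y axis, from 0) of 4 transport genes and 4 genes of SREBP2 control in each library by group (x axis, ctl for control); points are libraries, lines are group means and whiskers 1 SD (n = 2, 3, 4 and 4). Npc1 in KO cold lies between 63.6 and 103.3 CPM, above every other library, and Scarb1 in cold lies below both RT groups.

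Abca1 and Npc2 fell with cold in KO and did not pass in control. For Abca1, the exporter that loads cholesterol onto apolipoprotein A-I, control RT libraries read 138 and 177 CPM, KO RT libraries 158, 172 and 126 CPM, control cold libraries 108, 159, 103.5 and 112 CPM and KO cold libraries 88.1, 103.3, 93.4 and 58.1 CPM. In KO all cold libraries were below all RT libraries (log2 fold change -0.82 ± 0.19, adjusted p = 0.00633), and in control the groups overlapped through control cold 2 (log2 fold change -0.38 ± 0.21, adjusted p = 0.201). For Npc2, the soluble lysosomal partner of NPC1, KO libraries read 546, 507 and 492 CPM at RT and 406, 389.7, 299 and 432 CPM in cold, with no overlap (log2 fold change -0.43 ± 0.13, adjusted p = 0.0328). This call was lost without any KO RT library or KO cold 2 or 3 (adjusted p 0.0613 to 0.131). Its control libraries read 595 and 530.3 CPM at RT and 482, 531, 522 and 385 CPM in cold, with control cold 2 above control RT 2 (log2 fold change -0.23 ± 0.15, adjusted p = 0.282). The difference of the cold responses did not pass for Abca1 (adjusted p = 0.757) or Npc2 (adjusted p = 0.858).

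Macrophages also express these export and lysosomal genes. The 12 macrophage markers, 10 of them tested and none at 0 in every library, summed to 116 to 320.05 CPM in control cold and 121 to 161 CPM in KO cold. Control cold 2 had the highest macrophage sum (320.05 CPM), the highest fibroblast sum (1493 CPM) and the highest Abca1 level of its group. At RT the macrophage sum was 172 to 219 CPM in control and 125 to 191 CPM in KO. With cold 5 of 8 fibroblast markers fell in KO, beside 9.45% of all genes, and 0 of 8 in control, beside 12.6%, and the difference of the cold responses passed for 0 of 8. The part of these cells in the Abca1 and Npc2 differences was not tested.

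Setting KO beside control in cold compares tissue with and without adipocyte Cre after 6 h at 4 °C. Tags of both sensors were still counted in the KO tissue. Counts of 3′ tags do not show whether the transcripts they came from were intact. Stim1 had a mean of 91.2 CPM in KO cold against 124 CPM in control cold, and Stim2 22.9 against 42.7 CPM. Of the 29 tested members 2 were higher in KO and 0 were lower, or 6.9%, beside 5.93% of all genes (2.44% higher and 3.49% lower), a share near that background. At an unadjusted p under 0.05 edgeR found 8 members, beside 20.1% of all genes. The median log2 fold change of the members was -0.20, beside -0.01 over all genes, and 10 members were positive and 19 negative. Both calls belonged to transport. Npc1 was 2.33-fold higher (log2 fold change 1.22 ± 0.18, adjusted p = 0.000848), and was called whichever library was left out. Scarb1 was 1.73-fold higher (log2 fold change 0.79 ± 0.19, adjusted p = 0.0226), and its call was lost when control cold 1, 2 or 4, or KO cold 2, 3 or 4, was left out (adjusted p 0.0504 to 0.0711). Npc1 overlaps Rmc1 on the opposite strand with 511 shared exon bases, and Rmc1 had a mean of 7.67 ± 1.06 CPM in control cold against 10.7 ± 1.64 CPM in KO cold (SD, n = 4 each; log2 fold change 0.48 ± 0.29, adjusted p = 0.382).

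The 17 tested synthesis enzymes gave 0 calls between genotypes in cold, beside 5.93% of all genes. In edgeR 1 of them had an unadjusted p under 0.05, Sqle, beside 20.1% of all genes. Of the 17, 11 were negative. Sqle had a mean of 30.2 ± 11.8 CPM in control cold against 16.4 ± 7.33 CPM in KO cold (SD, n = 4 each) and did not pass (log2 fold change -0.89 ± 0.32, adjusted p = 0.114). It was lower in KO without KO cold 4 (adjusted p = 0.0405) and with no filter on low counts (adjusted p = 0.00435). Hmgcs1 differed by 0.13 on the log2 scale (95% interval -0.32 to 0.58) and Cyp51 by -0.20 (95% interval -0.60 to 0.21), so that a 2-fold difference of either gene lay outside the interval. For Fdft1 the interval was -1.72 to 0.25, which includes one. DESeq2 called the same 2 members as edgeR and 0 enzymes.

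In SREBP2 control, Srebf2 had a mean of 40.8 ± 7.49 CPM in control cold against 30.4 ± 8.95 CPM in KO cold (SD, n = 4 each; log2 fold change -0.43 ± 0.20, adjusted p = 0.244). KO cold 4 lay between control cold 2 and control cold 1, and the other 3 KO cold libraries were below all control cold libraries. Of the other transport genes, Mylip, a ubiquitin ligase that degrades lipoprotein receptors, read 34.6, 12.97, 29.7 and 39.5 CPM in the control cold libraries against 52.6, 47.5, 46.7 and 46.3 CPM in the KO cold libraries. The groups did not overlap, and the difference did not pass (log2 fold change 0.73 ± 0.26, adjusted p = 0.106). Abca1 did not overlap either, lower in KO (log2 fold change -0.49 ± 0.18, adjusted p = 0.127), by the narrow gap between control cold 3 and KO cold 2. With Npc1, 3 tested members had groups that did not overlap, 2 higher and 1 lower, beside 12.8% of all genes (6.28% higher and 6.53% lower). Macrophage markers gave 0 calls of 10 in this comparison, with a median log2 fold change of -0.51, and fibroblast markers 0 of 8, with a median of -0.60, and their part in the Abca1 difference was not tested. The log2 fold change of KO over control in cold was -0.76 ± 0.33, adjusted p = 0.214 for Stard4, a cytosolic sterol carrier, and -0.33 ± 0.13, adjusted p = 0.138 for Npc2. For the exporter Abcg1 it was -0.38 ± 0.26, adjusted p = 0.452, and for the esterifying enzyme Soat1 -0.19 ± 0.40, adjusted p = 0.843. None of the 4 passed.

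**Figure D4:**
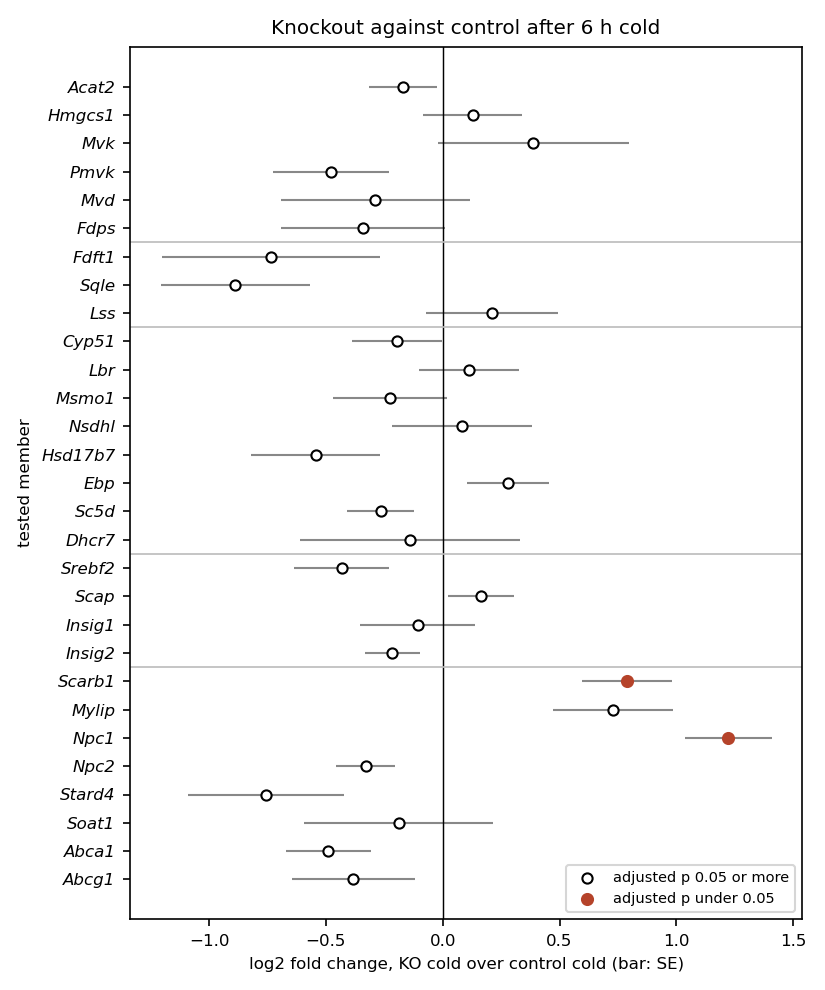
Log2 fold change of KO cold over control cold (x axis, bar of 1 standard error) for the 29 tested members (y axis), in blocks by role. Npc1 (1.22) and Scarb1 (0.79) are the filled points with adjusted p under 0.05, and the enzymes run from -0.89 (Sqle) to 0.39 (Mvk) without passing.

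At RT 0 of 29 members passed between genotypes, beside 0% of all genes. At an unadjusted p under 0.05 edgeR found 0 members, beside 3.12% of all genes, and DESeq2 called 0 after adjustment. The median log2 fold change of the members was -0.04, beside 0.00 over all genes. Npc1 had a mean of 45.6 ± 5.36 CPM in control (SD, n = 2) against 46.9 ± 10.3 CPM in KO (SD, n = 3), a log2 difference of 0.05 with a 95% interval of -0.45 to 0.54. Scarb1 differed by -0.04 (95% interval -0.47 to 0.40) and Srebf2 by 0.21 (95% interval -0.35 to 0.77). Among the tested members, groups that did not overlap were seen for Insig1, higher in KO, and for Cyp51, Stard4 and Soat1, lower in KO. Over all genes 8.68% had them with KO higher and 7.96% with KO lower, 16.6% in all. The RT comparison holds 2 against 3 libraries, and a miss does not show that levels were alike.

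The other genes around the pathway were read from a list of 50 symbols, of which 43 passed the filter. With cold 7 of the 43 rose and 12 fell in control, beside 12.7% and 12.6% of all genes, and 7 rose and 8 fell in KO, beside 9.43% and 9.45%. Of 4 genes of acetyl-CoA supply, 3 fell in control and 2 in KO, to be read beside the same shares of lower genes. Acss2, which makes acetyl-CoA from acetate, went from 189 ± 89.0 CPM to 77.4 ± 21.0 CPM in control (SD, n = 2 and 4; log2 fold change -1.30 ± 0.25, adjusted p = 0.00149) and from 124 ± 9.79 CPM to 63.6 ± 13.4 CPM in KO (SD, n = 3 and 4; log2 fold change -0.96 ± 0.23, adjusted p = 0.00790). Srebf1, the lipogenic relative of Srebf2, gave the smallest p of the list in either genotype. It went from 93.4 ± 40.9 CPM to 18.1 ± 5.801 CPM in control (log2 fold change -2.38 ± 0.28, adjusted p = 3.59e-05) and from 109 ± 26.2 CPM to 23.1 ± 4.47 CPM in KO (log2 fold change -2.24 ± 0.25, adjusted p = 2.37e-05).

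Sterol carriers moved both ways with cold. Stard5 rose in control (log2 fold change 1.36 ± 0.19, adjusted p = 0.000108) and in KO (log2 fold change 1.25 ± 0.16, adjusted p = 9.27e-05), and Osbpl5 fell in control (log2 fold change -1.32 ± 0.21, adjusted p = 0.000364) and in KO (log2 fold change -1.25 ± 0.19, adjusted p = 0.000278). Scarb2, a lysosomal membrane protein, rose in both (1.02 ± 0.15, adjusted p = 0.000151 in control and 0.77 ± 0.12, adjusted p = 0.000482 in KO, log2 fold changes). Erlin2, part of the machinery that degrades sterol-regulated proteins, fell in both (-0.53 ± 0.18, adjusted p = 0.0431 in control and -0.95 ± 0.17, adjusted p = 0.000864 in KO). Nr1h3, the liver X receptor that drives Abca1, rose in KO (log2 fold change 0.61 ± 0.12, adjusted p = 0.00218) while Abca1 fell there, and it did not pass in control (log2 fold change 0.30 ± 0.14, adjusted p = 0.11995).

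Between genotypes in cold 2 of the 43 were higher in KO and 2 lower, or 9.3%, beside 5.93% of all genes (2.44% higher and 3.49% lower). Aacs, which activates acetoacetate for sterol and fatty acid synthesis, read 61.6, 25.9, 27.9 and 18.4 CPM in control cold libraries against 102.8, 68.9, 67.5 and 131 CPM in KO cold libraries (log2 fold change 1.44 ± 0.35, adjusted p = 0.0228). Gramd1b, which moves cholesterol from the plasma membrane to the endoplasmic reticulum at their contacts, read 84.7, 91.4, 66.3 and 98.1 CPM in control cold libraries against 119, 203, 181 and 122 CPM in KO cold libraries (log2 fold change 0.88 ± 0.23, adjusted p = 0.0308). Nus1, of dolichol synthesis, which draws on farnesyl diphosphate, was lower in KO (log2 fold change -0.40 ± 0.11, adjusted p = 0.0407), as was Rnf139, a ubiquitin ligase of the endoplasmic reticulum (log2 fold change -0.58 ± 0.16, adjusted p = 0.0382). Control and KO libraries did not overlap for these 4 genes, as for 12.8% of all genes. Nus1 had risen with cold in control (log2 fold change 0.94 ± 0.14, adjusted p = 0.000202) and did not pass in KO (log2 fold change 0.28 ± 0.12, adjusted p = 0.108). The difference of these responses did not pass (adjusted p = 0.285).

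**Figure D5:**
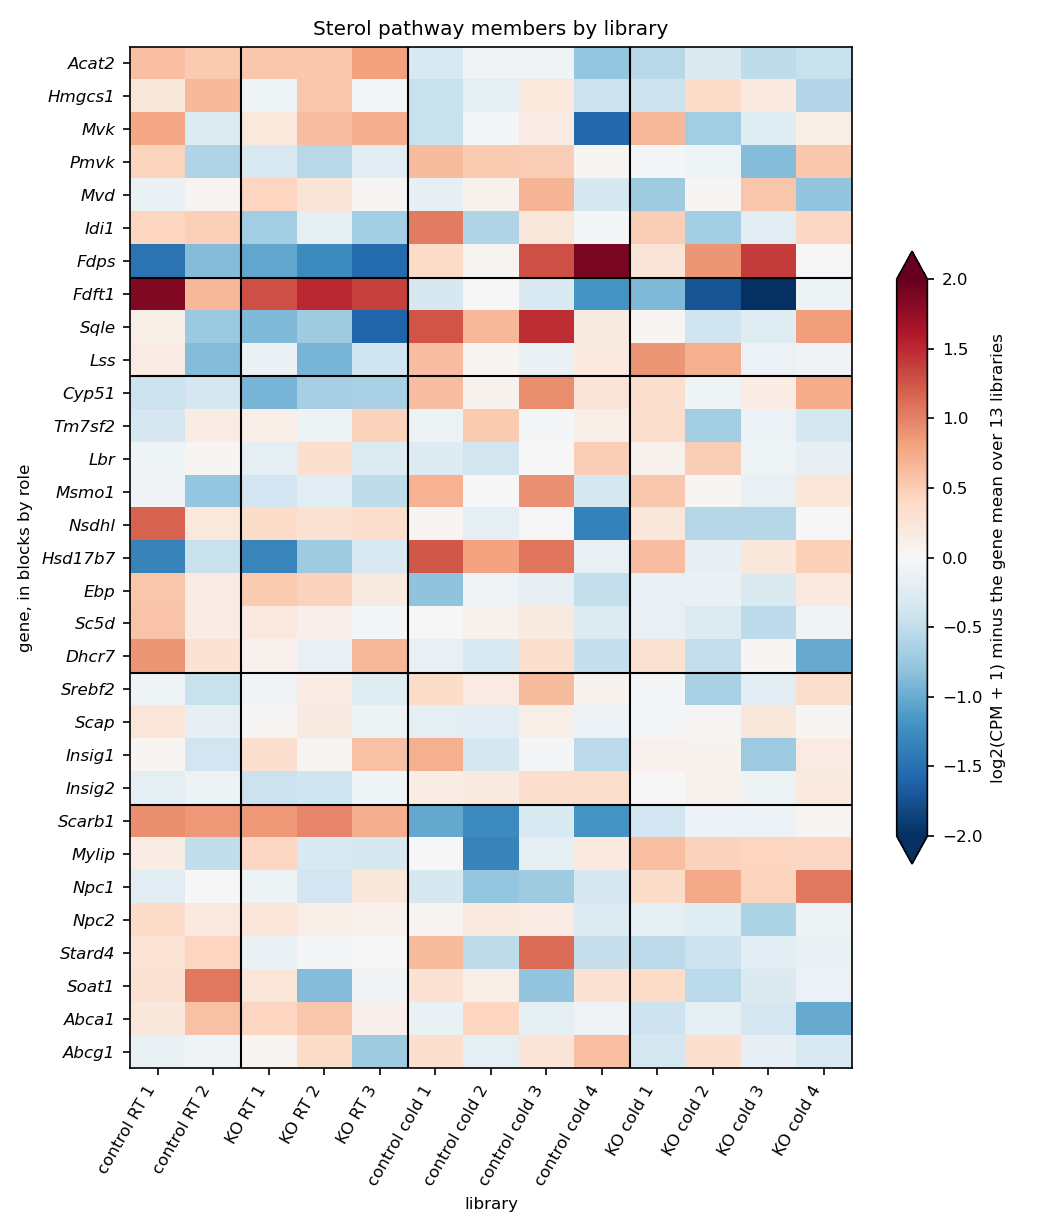
Log2(CPM + 1) of each of the 31 members (y axis, blocks by role) minus its mean over the 13 libraries (x axis, blocks by group); red is above and blue below the gene's mean, and colours saturate at 2 in either direction. Fdps and Fdft1 change in opposite directions between RT and cold, Scarb1 is red in the RT libraries, and Npc1 is red in the KO cold libraries.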

How the data were processed

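RNA of brown adipose tissue was read with a QuantSeq 3′ kit, per the labels' protocols. The authors deposited raw tag counts per Ensembl gene, with no normalization. The submitters' processing notes list STAR 2.7.10b, HTSeq 0.12.3, Trim Galore 0.6.7, UMI-tools 1.1.2 and the build GRCm39 without roles or parameters. The sources used here do not say whether tags were collapsed by identifier or counted by strand. A tag kit gives about 1 tag per transcript, so levels need no scaling by length.

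Of 55632 lines, 275 repeats of an identifier were dropped. In R 4.3.3 with edgeR 4.0.16, filterByExpr (minimum count 10) kept 11073 genes, which were normalized with TMM factors. All 13 libraries entered 1 quasi-likelihood model of the 4 groups, and 5 two-sided contrasts were each adjusted over all genes. DESeq2 1.42.0, other filters and scalings, a replicate block, fits of only the groups compared and leaving out each library were tried. Code was tested on simulated data. Library values are given for members called in any contrast and for Srebf2, Insig1, Hmgcs1 and Sqle, and at most 8 called genes per contrast were named from the other pathway list, fewer where the text needed fewer. Members and lists were chosen with earlier results of these data known. Overlapping genes were read from GENCODE M21 by name. No library pair of a group agreed within sampling noise (chi-square over its degrees of freedom 1.97 to 6.66). Intervals are 95%.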

Additional observations from a re-analysis of the deposited data

Results flagged for a closer look

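In the groups of 4 libraries, a library far from the other 3 was looked for in the level of each member, 62 groups in all, of which chance picks about 1 in 20. It was found in 2. Insig1 was at 38.8 CPM in KO cold 3, while the other KO cold libraries were at 68.3 to 72.8 CPM. Abca1 was at 159 CPM in control cold 2, while the other control cold libraries were at 103.5 to 111.5 CPM.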

How the results depend on the processing

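Of 145 pairs of a tested member and a comparison, 22 were called, and 9 of these were called in every alternative run. None of the 22 changed sign in any alternative. Of the 123 not called, 14 were called in at least 1 alternative, and of the 109 never called 49 changed sign in some alternative. The number of members changed between genotypes in cold was 2, and it was 5 with no filter on low counts. Without that filter the difference of cold responses gave 1 member in place of 0. Leaving out 1 library at a time gave 1 to 2 members between genotypes in cold, 0 to 0 at RT, 2 to 10 for cold in control, 6 to 11 for cold in KO and 0 to 0 for the difference of cold responses. With relative log expression scaling, a minimum count of 30, DESeq2, only the groups compared and plain library totals (added after seeing the data), each count stayed within 1.5 times. Over all genes, leaving out 1 library moved the share called from 5.93% to between 3.54% and 6.2% between genotypes in cold, from 25.2% to between 9.25% and 25.5% for cold in control and from 18.9% to between 11.1% and 20.1% for cold in KO. For the difference of cold responses DESeq2 called 1.13% of all genes and the fit with no filter 0.581%, in place of 0.0181%. With no filter the shares were 4.29% between genotypes in cold, 0.218% at RT, 13.1% for cold in control and 10.5% for cold in KO, over more genes tested. With the replicate number as a block, the members changed were 2 in cold between genotypes, 0 at RT, 7 for cold in control, 9 for cold in KO and 0 for the difference. Whether the numbers pair the samples is not given in the labels. Of 16 same-numbered pairs, 3 had deviations correlated above 0.1 (range -0.23 to 0.33), and 4 of 13 libraries correlated best with their own number. With 2 to 4 libraries per group, these correlations cannot decide it. The fit of only the groups compared was not run for the difference of cold responses, which needs all 4. Members with under 20 counts in most libraries (Idi1, Tm7sf2, Mvd, Dhcr7, Soat1, Mvk, Stard4 and Fdft1, the last in its 8 cold libraries) are limited by depth.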

Other observations

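Within control cold, 1 library held the highest and another the lowest level of many members. Of the 19 enzymes, 9 had their highest control cold level in control cold 3 and 11 had their lowest in control cold 4. In control cold 3 these included Sqle, Cyp51 and Msmo1, and Srebf2 and Stard4 were highest there too. The summed level of the 19 enzymes was 1363 CPM in control cold 3 and 926 CPM in control cold 4, and Fdps, at 32.8, 25.9, 62.6 and 96.001 CPM in control cold 1 to 4, did not follow that order. In KO cold, 8 of the 19 enzymes were highest in KO cold 1 and 7 were lowest in KO cold 3. The 19 include Idi1 and Tm7sf2, which were not tested, and control cold 4 had the lowest total count of the 13 libraries (1570684). Such counts were not made over all genes, so whether these patterns are particular to the pathway was not tested.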
